A study of Mus musculus with 4 samples.

Results

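The transcripts of 8 genes of the Notch pathway were followed through smooth muscle states and endothelial cells of mouse arteries. They were the receptor genes *Notch1*, *Notch2* and *Notch3*, the ligand gene *Jag1*, and the target genes *Heyl*, *Hey1*, *Hey2* and *Hes1*, chosen by name from 34469 genes listed in the series. Single-cell RNA-seq had been performed on 4 libraries, 1 per genotype in each of 2 experiments. In the plaque experiment, cells came from plaques dissected from the aortic root, the aortic arch and the carotid arteries of C57Bl/6 mice fed a high fat diet. The control mice were Myh11-CreERt2/Confetti/ApoE-/- (here ApoE-/-) and the others Myh11-CreERt2/Confetti/Sm22a-Trf2T188A/ApoE-/- (here Trf2T188A/ApoE-/-). Mice of both plaque groups therefore lacked ApoE and carried a tamoxifen-inducible Cre under Myh11 with the Confetti reporter, which marks vascular smooth muscle cells (VSMCs) and their progeny, and the authors kept clusters expressing the reporter. In the ligation experiment, carotid arteries were taken 28 days after ligation from wild type littermate controls and SM22a-TRF2T188A mice (here Trf2T188A), after removal of the adventitia and of sections that had not remodelled. The mutant telomere protein TRF2 was driven by a minimal Sm22a promoter, which acts in arterial VSMCs. The comparisons asked how these genes differed between VSMC states and whether VSMCs carrying the mutant protein differed from control VSMCs in them.

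Notch receptors are cleaved when a Jagged or Delta ligand on a neighbouring cell binds them, and the released intracellular part joins the DNA-binding protein RBPJ to switch on target genes. *Heyl*, *Hey1*, *Hey2* and *Hes1* encode basic helix-loop-helix repressors that are classical targets. In arteries, NOTCH3 is the receptor best known in mural cells, JAG1 is a ligand made by endothelial cells and VSMCs, and NOTCH1, NOTCH4 and DLL4 act in the endothelium. *Hes1* is also induced by signals other than Notch.

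All 8 genes are protein coding, and in the annotation of GRCm38, the build used by the authors, they lie on 6 chromosomes. *Notch1* lies at chr2:26457903-26516663 and *Jag1* at chr2:137081456-137116644, both on the minus strand. *Notch2* (chr3:98013527-98150361, plus strand) is the longest of them at 136.835 kb, and *Hey1* (chr3:8663359-8667256, minus strand) is on the same chromosome. *Notch3* lies at chr17:32120820-32166852 on the minus strand, *Heyl* at chr4:123233556-123249875 on the plus strand, *Hey2* at chr10:30832359-30842801 on the minus strand and *Hes1* at chr16:30064384-30067796 on the plus strand. The table of RefSeq promoters for GRCm38.p6 matched 5 members, *Notch1*, *Notch2*, *Notch3*, *Jag1* and *Hey2*. The core letters bound by RBPJ, TGGGAA, were searched on both strands (as TGGGAA or TTCCCA) from 250 bases before to 50 bases after each start. Of 32851 promoters, 25.6% held at least 1 match and 1.81% held both forms. Among the 5 members matched, *Hey2* alone held matches. Its promoter is shown from 250 bases before the start to the end of the last match (chr10:30842781-30843033, minus strand), since *Hey2* is a target gene whose level differed between states below, and capitals mark the matches, which are a description and not sites of measured binding.
Hey2: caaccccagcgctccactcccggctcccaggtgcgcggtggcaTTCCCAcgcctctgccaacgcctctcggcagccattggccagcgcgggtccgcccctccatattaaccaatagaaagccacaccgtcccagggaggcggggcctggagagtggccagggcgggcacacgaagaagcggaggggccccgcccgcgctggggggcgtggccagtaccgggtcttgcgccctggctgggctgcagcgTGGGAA
The first match began 207 bases before the start and the last 3 bases before it.

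The libraries held 1502 ApoE-/- cells, 929 Trf2T188A/ApoE-/- cells, 4967 ligation control cells and 5392 ligation Trf2T188A cells, with 24064570 to 67426588 unique molecular identifiers (UMIs, each standing for 1 captured RNA molecule) per library. The median cell held 22765.5 and 24377 UMIs in the plaque libraries and 8631 and 11153 UMIs in the ligation libraries, so the Trf2T188A ligation library was the deeper of its pair. The 2 ligation libraries shared 10 cell barcodes and the plaque libraries 0. *Terf2*, which encodes TRF2, was at 0.183 UMIs per 10000 in each plaque library, 0.179 in ligation controls and 0.168 in ligation Trf2T188A cells. Whether transcripts of the transgene were counted under *Terf2* is not given in the sources used here, so these levels do not check the genotype labels. A level below is the summed UMIs of a gene per 10000 UMIs of all genes in a class of cells. Its 95% interval, like that of each ratio, covers counting error only and not variation between mice. The number of mice behind a library is not given in the sources used here, and with 1 library per genotype a difference between genotypes cannot be told apart from a difference between 2 libraries, so no test was run. Each gene was compared with itself across classes, not with other genes.

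Cells were clustered again without the Notch genes among the variable genes, and clusters were named from marker lists that follow the study's own tables, made on these samples. In plaques, contractile-like cells numbered 746 ApoE-/- and 338 Trf2T188A/ApoE-/- cells, *Pln* *Sncg* contractile-like cells 59 and 22, fibromyocyte-like cells 160 and 130, chondrocyte-like cells 81 and 63, complement-like cells 107 and 72, *Adamtsl1* *Mdga2*-like cells 39 and 39, and *Itih4* *Wnt16*-like cells 196 and 161. *Cd74* and *H2-Ab1*, genes of antigen presentation, stood among the leading genes of the last class. Summed over *Myh11*, *Acta2*, *Tagln*, *Cnn1* and *Smtn*, the contractile level was 361 and 381 in contractile-like cells, 57.5 and 43.5 in fibromyocyte-like cells and 6.18 and 2.92 in chondrocyte-like cells. After ligation there were 1572 control and 2283 Trf2T188A contractile-like cells, 2046 and 1909 remodelling-like cells led by *Igfbp2* and *Ccn5*, 1146 and 1004 de-differentiated-like cells led by *Ecrg4* and *Lum*, 121 and 71 interferon-like cells, 62 and 65 endothelial-like cells, and 20 and 60 myeloid-like cells. All 10 endothelial markers were detected in the endothelial-like cells, where their summed level was 61.2 in control and 54.0 in Trf2T188A cells, against 0.146 to 0.309 in the smooth muscle classes of the ligation libraries. The contractile level was 344 and 363 in ligation contractile-like cells, 394 and 404 in remodelling-like cells and 180 and 165 in de-differentiated-like cells.

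*Notch3* was concentrated in a small contractile population of plaques and was nearly undetected in chondrocyte-like cells. Its level in *Pln* *Sncg* contractile-like cells was 2.03 in the ApoE-/- library (interval 1.75 to 2.33, 197 UMIs) and 2.47 in the Trf2T188A/ApoE-/- library (2.0 to 3.01, 98 UMIs). In the main contractile-like class it was 0.192 in each library (0.172 to 0.214 and 0.163 to 0.225). The *Pln* *Sncg* class was thus 10.6-fold higher in ApoE-/- cells (log2 ratio 3.40, 3.14 to 3.66) and 12.8-fold higher in Trf2T188A/ApoE-/- cells (log2 ratio 3.68, 3.30 to 4.06). It held 3.93% of ApoE-/- cells but 23.1% of their *Notch3* UMIs. With each cell thinned to 8000 UMIs, a *Notch3* UMI was found in 55.6% and 71.4% of *Pln* *Sncg* contractile-like cells and in 12.3% and 11.2% of contractile-like cells. *Notch3* was among the 10 genes with the highest fold in this cluster, so its level there partly describes how the cluster stands out. Summed over 6 pericyte markers, the level was 2.91 and 2.57 in this class and 2.45 and 2.49 in contractile-like cells. No interval is given for these sums, and 2.57 rests on 22 cells, so no direction is given for them.

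**Figure D1:**
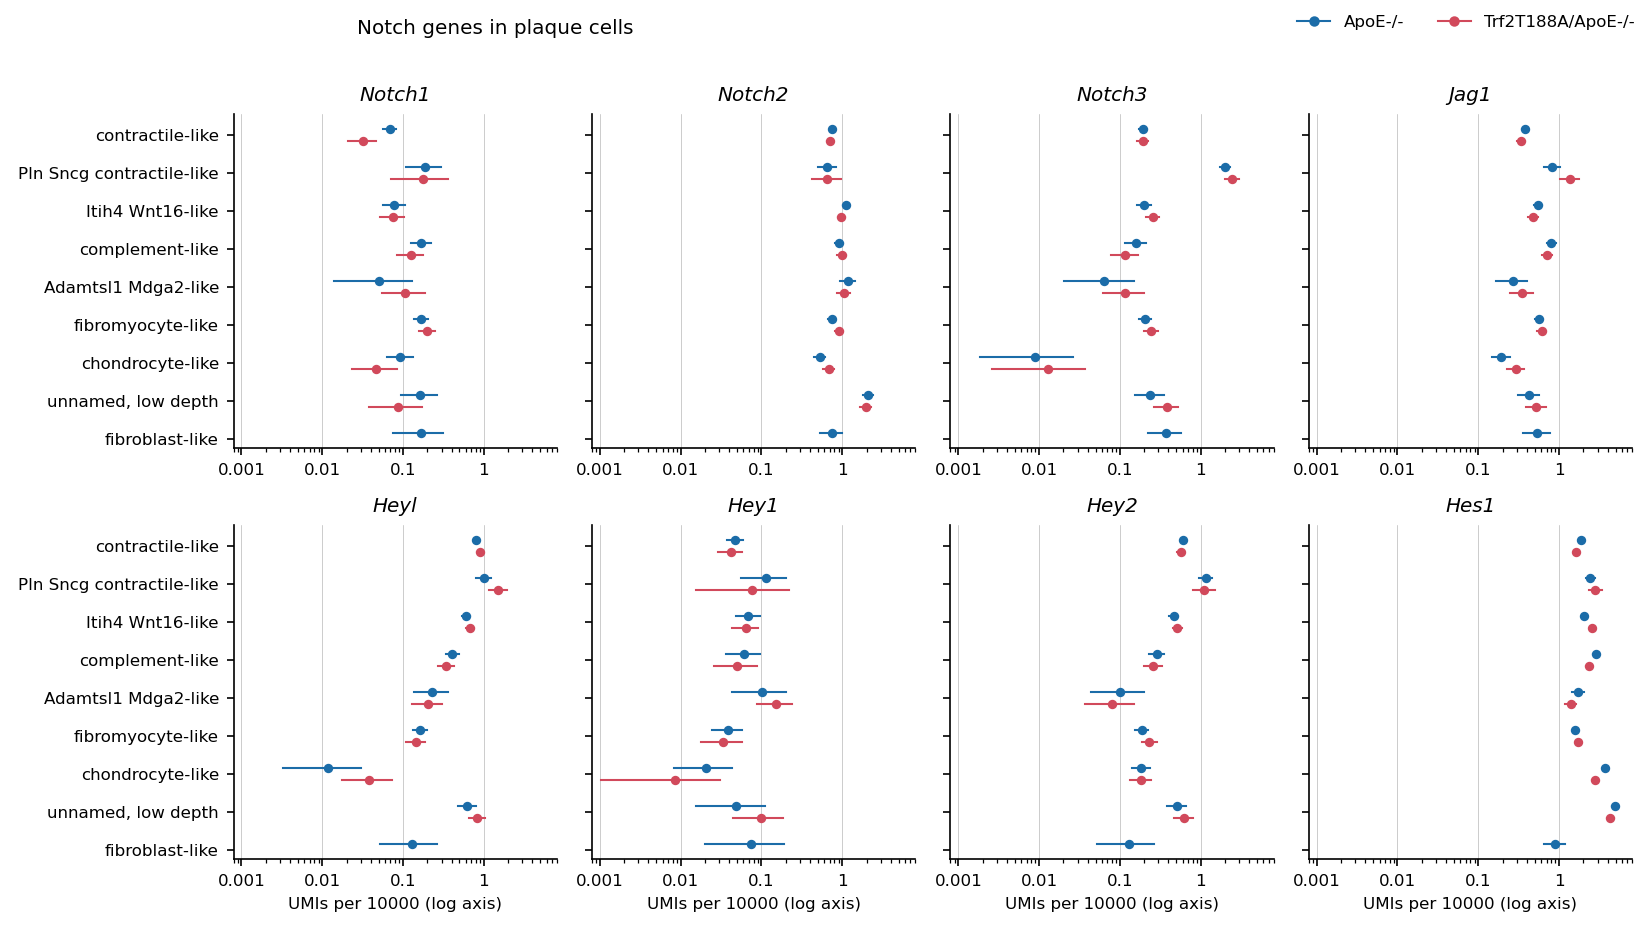
Levels of the 8 Notch genes in plaque cell classes, in UMIs per 10000 on a log axis shared by all panels. Points are the 2 libraries, 1 per genotype, and lines are exact Poisson 95% intervals that cover counting error only. Classes with under 20 cells in a library are left out of it, and the fibroblast-like class is therefore shown for ApoE-/- alone. *Notch3* stands at 2.03 and 2.47 in *Pln* *Sncg* contractile-like cells, and *Heyl* runs from 0.998 and 1.51 there to 0.0119 and 0.0383 in chondrocyte-like cells.

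In chondrocyte-like cells, only 3 *Notch3* UMIs were counted in each library, at levels of 0.00895 and 0.0128. Against contractile-like cells the log2 ratio was -4.42 (-6.71 to -2.86) in ApoE-/- and -3.91 (-6.21 to -2.34) in Trf2T188A/ApoE-/- cells. Other plaque states lay between these levels and those of *Pln* *Sncg* contractile-like cells. Fibromyocyte-like cells were at 0.206 and 0.245, *Itih4* *Wnt16*-like cells at 0.201 and 0.256, complement-like cells at 0.157 and 0.116, and *Adamtsl1* *Mdga2*-like cells at 0.0633 and 0.116. In order of level, *Pln* *Sncg* contractile-like cells came first and chondrocyte-like cells last in each library, each apart from its neighbour beyond counting error. In ApoE-/- cells no other neighbouring pair was apart, and in Trf2T188A/ApoE-/- cells contractile-like cells also stood above complement-like cells. The fibromyocyte-like ratio over both libraries, 0.20 (-0.03 to 0.43), turned to -0.62 at a lower clustering resolution and to -0.35 without cells holding an endothelial UMI, so no direction is given for it.

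After ligation, *Notch3* was highest in remodelling-like cells. Its level there was 0.415 in controls (0.387 to 0.445) and 0.424 in Trf2T188A cells (0.398 to 0.451), against 0.142 and 0.143 in contractile-like cells. The difference was 2.92-fold in the control library (log2 ratio 1.55, 1.33 to 1.77) and 2.96-fold in the Trf2T188A library (1.56, 1.40 to 1.73). De-differentiated-like cells were intermediate at 0.211 and 0.277, with log2 ratios of 0.57 (0.30 to 0.85) and 0.95 (0.74 to 1.16), and interferon-like cells were at 0.283 and 0.223. Endothelial-like cells held 3 and 2 *Notch3* UMIs, and the share with a UMI after thinning to 5000 UMIs was 1.75% and 3.12%. This share is a rough guide to background, since whether these cells express *Notch3* was not tested. Trf2T188A myeloid-like cells had a higher level, 0.0830 on 5 UMIs. The thinned share in contractile-like cells was 6.25% and 7.09%, and in remodelling-like cells 16.5% and 17.9%. Median depth before thinning was 10407 and 14166 UMIs in endothelial-like cells and 8514.5 and 11423 UMIs in contractile-like cells.

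*Notch1* marked endothelial-like cells. Its level there was 2.13 in controls (1.82 to 2.48, 171 UMIs) and 2.59 in Trf2T188A cells (2.29 to 2.91, 280 UMIs), 17.1-fold and 24.6-fold above contractile-like cells, at 0.125 and 0.105. The class held 1.25% of control cells and 17.2% of their *Notch1* UMIs. Among VSMCs the level was higher in de-differentiated-like cells, at 0.235 and 0.213, with log2 ratios to contractile-like cells of 0.92 (0.64 to 1.20) and 1.02 (0.78 to 1.26). Remodelling-like cells were at 0.177 and 0.169. Beside these, the endothelial ligand gene *Dll4* had 116 UMIs in control endothelial-like cells, with 171 of *Notch1*, and 12 in control contractile-like cells, with 184 of *Notch1*. The part of endothelial RNA in the *Notch1* level of VSMCs was not tested.

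In plaques, *Notch1* was low in every class and lowest in Trf2T188A/ApoE-/- contractile-like cells. It was at 0.0692 in ApoE-/- contractile-like cells (116 UMIs) and 0.0318 in Trf2T188A/ApoE-/- ones (26 UMIs). Fibromyocyte-like cells were at 0.169 and 0.198, a log2 ratio of 1.29 (0.90 to 1.68) and 2.64 (1.98 to 3.34) to the contractile-like cells of the same library. Complement-like cells were at 0.168 and 0.125, and *Pln* *Sncg* contractile-like cells at 0.185 (18 UMIs) and 0.176 (7 UMIs). *Notch1* was higher than in contractile-like cells in each library in 6 of the 7 plaque classes compared in both, the exception being *Adamtsl1* *Mdga2*-like cells, where the libraries went opposite ways on 4 and 12 UMIs.

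*Notch2* was detected in every class compared and differed little between most VSMC states. In plaques it was at 0.741 and 0.714 in contractile-like cells, 0.739 and 0.909 in fibromyocyte-like cells, 0.648 and 0.655 in *Pln* *Sncg* contractile-like cells and 0.525 and 0.685 in chondrocyte-like cells. *Adamtsl1* *Mdga2*-like cells, at 1.17 and 1.04, and *Itih4* *Wnt16*-like cells, at 1.12 and 0.975, were higher, with log2 ratios over both libraries of 0.58 (0.36 to 0.78) and 0.52 (0.41 to 0.63). After ligation it was at 0.484 and 0.324 in contractile-like, 0.519 and 0.372 in de-differentiated-like and 0.381 and 0.278 in remodelling-like cells. The lowest levels, 0.287 and 0.129, were in endothelial-like cells, 1.93-fold below contractile-like cells over both libraries.

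*Jag1*, the ligand gene, was higher in several modulated VSMC states than in contractile-like cells. In plaques its level was 0.376 and 0.339 in contractile-like cells, 0.568 and 0.607 in fibromyocyte-like cells, 0.801 and 0.711 in complement-like cells and 0.552 and 0.478 in *Itih4* *Wnt16*-like cells. *Pln* *Sncg* contractile-like cells were highest, at 0.823 (0.653 to 1.02) and 1.36 (1.02 to 1.78), while *Adamtsl1* *Mdga2*-like cells were at 0.266 and 0.347 and chondrocyte-like cells lowest, at 0.191 and 0.294. Log2 ratios over both libraries were 0.68 (0.53 to 0.83) for fibromyocyte-like, 1.06 (0.89 to 1.23) for complement-like and -0.64 (-0.92 to -0.38) for chondrocyte-like cells, the last made of -0.98 in ApoE-/- and -0.21 in Trf2T188A/ApoE-/- cells. After ligation, de-differentiated-like cells, at 0.730 and 0.664, stood about the same distance above contractile-like cells, at 0.372 and 0.329, in each library (log2 ratios 0.97, 0.81 to 1.13, and 1.02, 0.88 to 1.15). Remodelling-like cells were at 0.492 and 0.480. In endothelial-like cells *Jag1* was at 0.486 and 0.407, and its interval against contractile-like cells held 0 in each library, though not over both (0.36, 0.02 to 0.68). Thus VSMCs, which made up most cells, carried most *Jag1* UMIs, and the endothelial-like class held 1.60% and 1.47% of them.

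**Figure D2:**
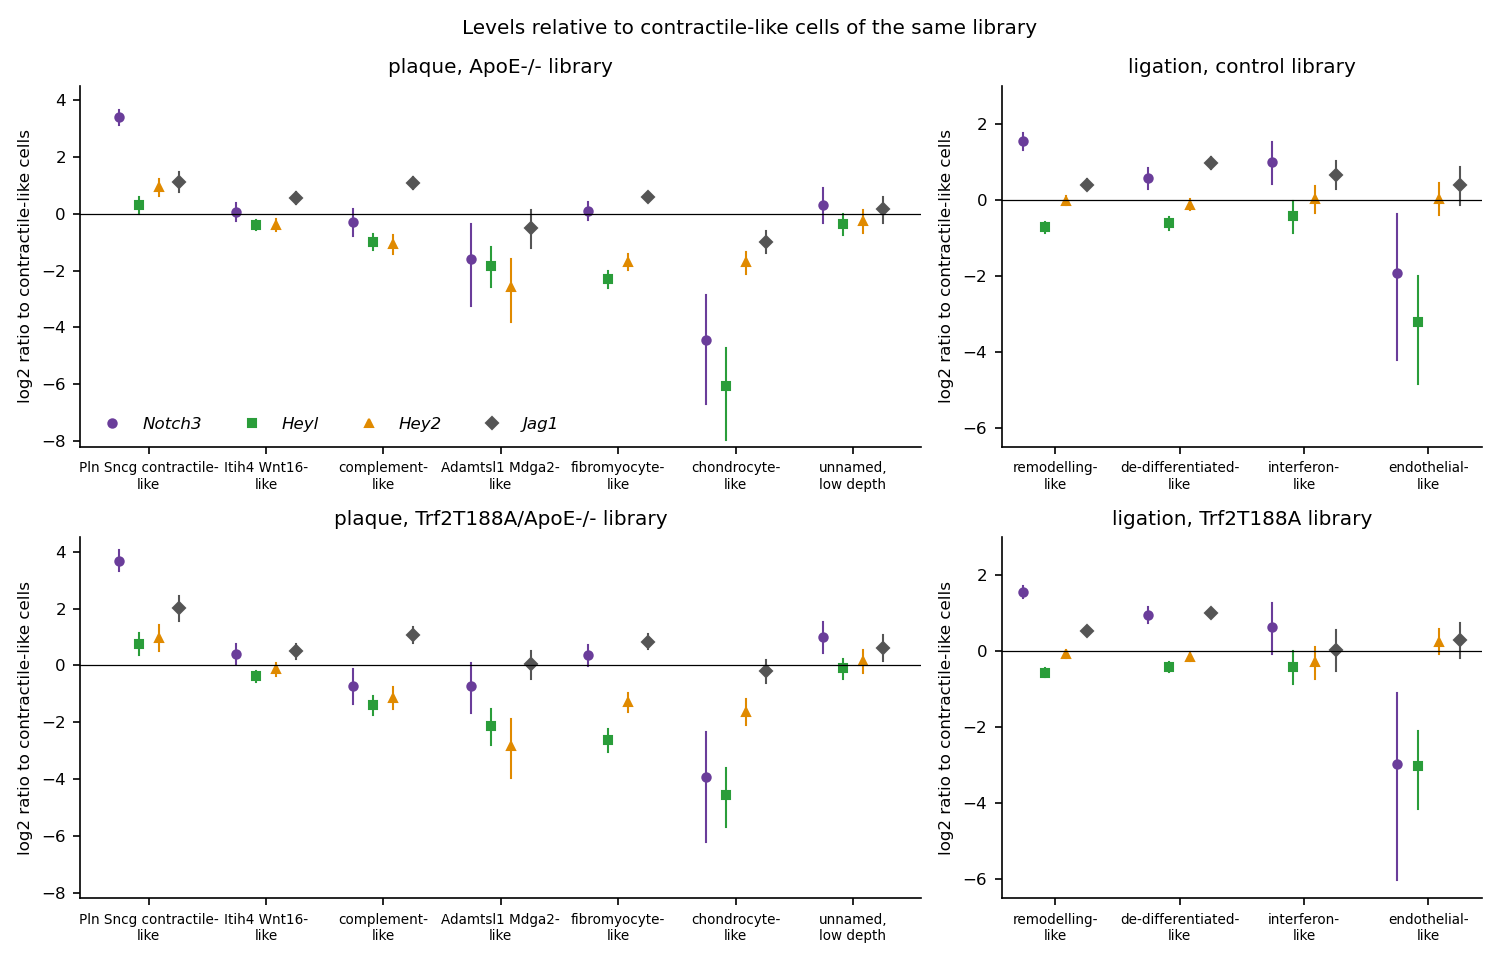
Log2 ratio of the level of *Notch3*, *Heyl*, *Hey2* and *Jag1* in each class to contractile-like cells of the same library, for plaque (left) and ligation (right) and for control (top) and Trf2T188A (bottom) libraries. Lines are exact 95% intervals covering counting error only. In remodelling-like cells *Notch3* stands at 1.55 and 1.56 and *Heyl* at -0.72 and -0.56, on opposite sides of 0.

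*Heyl*, a target gene known for its expression in VSMCs, was highest in contractile-like classes and lower in each modulated plaque state. Its level was 0.805 (0.762 to 0.849) and 0.895 (0.831 to 0.962) in contractile-like cells and 0.998 (0.810 to 1.22) and 1.51 (1.15 to 1.95) in *Pln* *Sncg* contractile-like cells. It was 0.610 and 0.682 in *Itih4* *Wnt16*-like cells, 0.407 and 0.341 in complement-like cells, 0.228 and 0.204 in *Adamtsl1* *Mdga2*-like cells and 0.163 and 0.146 in fibromyocyte-like cells. The fibromyocyte-like level was 4.94-fold lower than in contractile-like cells in the ApoE-/- library (log2 ratio -2.30, -2.61 to -2.01) and 6.14-fold lower in the Trf2T188A/ApoE-/- library (-2.62, -3.04 to -2.22). Chondrocyte-like cells held 4 and 9 *Heyl* UMIs, at 0.0119 and 0.0383, with log2 ratios of -6.08 (-7.95 to -4.72) and -4.55 (-5.68 to -3.61). After thinning, a *Heyl* UMI was found in 44.7% and 45.5% of contractile-like and 9.68% and 11.4% of fibromyocyte-like cells. In fibromyocyte-like cells *Heyl* was thus lower in each library, and the *Notch3* interval held 0 in each. The *Notch3* ratio changed sign with the processing, as given above, so no contrast between these genes is drawn there.

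After ligation, *Heyl* and *Notch3* differed from contractile-like cells in opposite directions in remodelling-like and de-differentiated-like cells. Both were lower in endothelial-like cells. Myeloid-like cells held 0 *Notch3* UMIs in controls and 5 in Trf2T188A cells, so no direction of *Notch3* is given for them. *Heyl* was at 0.581 (0.543 to 0.622) and 0.675 (0.645 to 0.706) in contractile-like cells, 0.353 (0.327 to 0.380) and 0.459 (0.432 to 0.487) in remodelling-like cells, and 0.379 and 0.507 in de-differentiated-like cells. The remodelling-like log2 ratio was -0.72 (-0.87 to -0.57) in controls and -0.56 (-0.66 to -0.45) in Trf2T188A cells, where that of *Notch3* was 1.55 and 1.56. The de-differentiated-like ratio was -0.62 (-0.79 to -0.45) and -0.41 (-0.54 to -0.28). In interferon-like cells *Heyl* was at 0.432 and 0.511. The log2 ratio of contractile-like over interferon-like cells was 0.43 (0.02 to 0.86) in controls. In Trf2T188A cells it was 0.40 (-0.01 to 0.85), an interval that held 0. *Notch3* in interferon-like cells, higher than in contractile-like cells, rested on 34 and 21 UMIs. Endothelial-like cells held 5 and 9 *Heyl* UMIs, at 0.0623 and 0.0832, 9.32-fold and 8.12-fold below contractile-like cells.

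*Hey2* followed *Heyl* in plaques but not after ligation. In plaques it was at 0.604 and 0.566 in contractile-like cells, 1.15 and 1.11 in *Pln* *Sncg* contractile-like cells, 0.463 and 0.516 in *Itih4* *Wnt16*-like cells, 0.287 and 0.258 in complement-like cells and 0.185 and 0.232 in fibromyocyte-like cells. Chondrocyte-like cells were at 0.185 and 0.183, well above the near absence of *Heyl* there, and *Adamtsl1* *Mdga2*-like cells were lowest at 0.101 and 0.0800. Log2 ratios to contractile-like cells over both libraries were 0.95 (0.70 to 1.19) for *Pln* *Sncg* contractile-like, -1.54 (-1.76 to -1.33) for fibromyocyte-like and -2.74 (-3.52 to -2.05) for *Adamtsl1* *Mdga2*-like cells. After ligation the VSMC classes were close together, with contractile-like cells at 0.624 and 0.633, remodelling-like at 0.615 and 0.605 and de-differentiated-like at 0.574 and 0.575. Endothelial-like cells were at 0.636 and 0.758. In each ligation library no neighbouring pair of these 5 classes, interferon-like cells included, was apart beyond counting error, and only the myeloid-like class, at 0.166 and 0.149, stood below.

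*Hey1* was scarce in VSMCs and highest in endothelial-like cells, at 0.474 (0.335 to 0.650) and 0.323 (0.225 to 0.450). Ligation contractile-like cells were at 0.127 and 0.126, so the endothelial-like level was 3.74-fold and 2.57-fold higher. The remaining smooth muscle classes of the ligation libraries lay between 0.106 and 0.125. In plaques *Hey1* was at 0.0477 and 0.0416 in contractile-like cells and between 0.00851 and 0.151 in the other smooth muscle states, with at most 36 UMIs in any of them. Neighbouring classes could not be told apart in order of level at this depth in either plaque library.

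*Hes1* was detected in most VSMCs, and its level is given beside that of early-response genes, with which it went the same way in some classes and not in others. In plaques it was at 1.89 and 1.63 in contractile-like, 1.57 and 1.73 in fibromyocyte-like, 2.83 and 2.36 in complement-like and 3.75 and 2.78 in chondrocyte-like cells. *Pln* *Sncg* contractile-like cells had *Hes1* at 2.45 and 2.82. In the ApoE-/- library it was thus highest, among named states, in the chondrocyte-like cells that nearly lacked *Notch3* and *Heyl*. In the Trf2T188A/ApoE-/- library *Pln* *Sncg* contractile-like cells came first among named states, not apart from chondrocyte-like cells beyond counting error (log2 ratio 0.02, -0.28 to 0.31). The summed level of 12 early genes, which tissue digestion can induce (*Fos*, *Fosb*, *Jun*, *Junb*, *Egr1*, *Atf3*, *Ier2*, *Ier3*, *Dusp1*, *Zfp36*, *Nr4a1* and *Btg2*), was 91.5 and 87.9 in contractile-like, 54.8 and 55.6 in fibromyocyte-like, 124 and 118 in complement-like and 194 and 209 in chondrocyte-like cells. *Adamtsl1* *Mdga2*-like cells had *Hes1* at 1.73 and 1.40, below contractile-like cells, and early genes at 127 and 112, above them. The contractile-like class itself held 4 clusters. Their *Hes1* level was 0.985, 1.10, 3.5 and 2.39 in ApoE-/- cells, where the early genes summed to 53.9, 74.3, 150 and 103 in the same order. The part of the early genes in these levels was not tested. After ligation *Hes1* was highest in endothelial-like cells, at 4.31 and 4.19, where the early genes summed to 165 and 209. Contractile-like cells were at 2.92 and 3.10 and remodelling-like cells at 2.13 and 2.74, with the early genes at 166 and 154 and at 148 and 135.

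**Figure D3:**
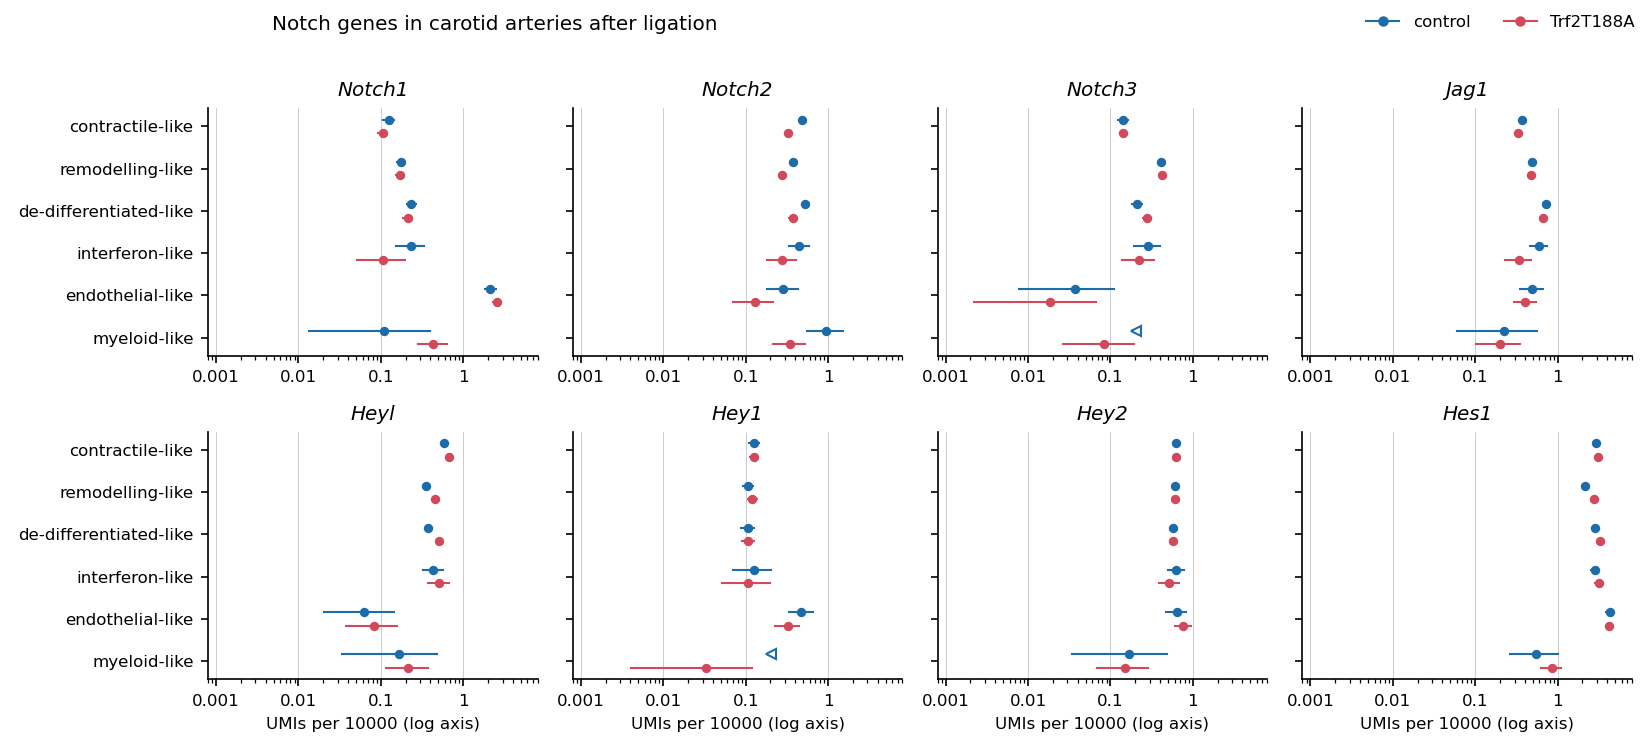
Levels of the 8 Notch genes in classes of cells from ligated carotid arteries, in UMIs per 10000 on a log axis shared by all panels. Points are the 2 libraries, 1 per genotype, lines are exact Poisson 95% intervals covering counting error only, and an open arrow marks the upper limit where no UMI was counted. *Notch1* stands at 2.13 and 2.59 in endothelial-like cells and *Notch3* at 0.415 and 0.424 in remodelling-like cells, and *Notch2* is lower in the Trf2T188A library in each class.

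Counts of members past a fixed fold were read against all genes. A gene was counted when its log2 ratio was at least 0.5 in size, which is 1.41-fold, and when at least 10% of the cells of either group held a UMI of it. In plaques *Hey1* was under this filter in contractile-like cells, so it entered a comparison only through the other class and could hardly be counted as lower there, and its calls below are a description. In *Pln* *Sncg* contractile-like cells, 6 of the 8 members passing the filter (*Notch1*, *Notch3*, *Jag1*, *Hey1*, *Hey2* and *Hes1*) were higher than in contractile-like cells and 0 lower, where 11.9% of all genes were higher and 10.4% lower. In fibromyocyte-like cells *Notch1* and *Jag1* were higher and *Heyl* and *Hey2* lower, against 23.0% and 18.4% of all genes. In chondrocyte-like cells 7 members passed the filter, *Hes1* was higher and *Notch3*, *Jag1*, *Heyl* and *Hey2* were lower, against 20.2% and 40.4%. In complement-like cells *Notch1*, *Jag1* and *Hes1* were higher and *Heyl* and *Hey2* lower, against 23.1% and 15.9%. *Adamtsl1* *Mdga2*-like cells had *Notch1*, *Notch2* and *Hey1* higher and *Notch3*, *Heyl* and *Hey2* lower, against 23.4% and 9.42%. *Itih4* *Wnt16*-like cells had *Notch2*, *Jag1* and *Hey1* higher and 0 lower, against 9.13% and 5.46%. After ligation, *Notch1* and *Notch3* were higher and *Heyl* lower in remodelling-like cells, against 4.23% and 6.78% of all genes. In de-differentiated-like cells *Notch1*, *Notch3* and *Jag1* were higher and *Heyl* lower, against 10.6% and 11.1%. In endothelial-like cells *Notch1* and *Hey1* were higher and *Notch2*, *Notch3* and *Heyl* lower, against 31.1% and 24.1%. In interferon-like cells *Notch1* and *Notch3* were higher and 0 were lower, against 6.11% and 6.1%. *Notch1* stood higher there in controls (log2 ratio 0.90) but not in Trf2T188A cells (0.02). Myeloid-like cells had *Notch1* higher and *Notch3*, *Jag1*, *Heyl*, *Hey1*, *Hey2* and *Hes1* lower, against 28.6% and 37.3%. *Notch1* was past the fold there in Trf2T188A cells, on 26 UMIs, but not in controls, on 2 UMIs. The *Notch3* call in myeloid-like cells rested on 0 UMIs in controls and 5 in Trf2T188A cells, so it gives no direction. *Notch3* and *Heyl* in chondrocyte-like and endothelial-like cells, and *Notch3*, *Hey1* and *Hey2* in myeloid-like cells, were under the filter in those classes. They entered only through contractile-like cells and could hardly be counted as higher, so their calls are a description.

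Between genotypes, *Notch3* and *Heyl* of contractile-like cells differed little. The log2 ratio of Trf2T188A/ApoE-/- over ApoE-/- contractile-like cells was 0.00 for *Notch3* (-0.28 to 0.28) and 0.15 for *Heyl* (0.02 to 0.28). In contractile-like cells after ligation it was 0.01 for *Notch3* (-0.23 to 0.26) and 0.22 for *Heyl* (0.10 to 0.33). None of these was past the fold. In plaque contractile-like cells, 7 members passed the filter and *Notch1* alone was past the fold, lower at a log2 ratio of -1.12 (-1.79 to -0.50), where 0.97% of all genes were higher and 1.71% lower. *Notch1* passed the filter only through the ApoE-/- cells, 12.6% of which held a UMI. The 338 Trf2T188A/ApoE-/- cells held 26 UMIs, so *Notch1* could hardly be counted as higher, and its call is a description. *Notch1* was lower in the Trf2T188A/ApoE-/- cells of each of the 4 clusters of the class, at 0.0570 and 0.0184, 0.0453 and 0.0281, 0.103 and 0.0528, and 0.0751 and 0.0422, though each of the latter values rests on 5 to 9 UMIs. The clusters come from the same pair of libraries and together make up the pooled ratio, so they are not replicates of it. Mitochondrial transcripts made up 2.41% of UMIs in the ApoE-/- and 1.80% in the Trf2T188A/ApoE-/- library, and their part in this difference was not tested. With pseudocounts of 1 and 0.1, which are above the level itself, the ratio was -0.05 and -0.37.

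After ligation, *Notch2* was lower in the Trf2T188A library in all 6 classes. In contractile-like cells it was at 0.484 in controls (0.449 to 0.521, 715 UMIs) and 0.324 in Trf2T188A cells (0.303 to 0.345, 927 UMIs), a log2 ratio of -0.58 (-0.72 to -0.44). It was the single member past the fold there, where 1.3% of all genes were higher and 0.517% lower. The ratio was -0.46 (-0.61 to -0.30) in remodelling-like and -0.48 (-0.66 to -0.30) in de-differentiated-like cells, where 0 members were past the fold against 2.53% higher and 1.07% lower, and 2.05% higher and 0.784% lower, of all genes. In interferon-like cells it was -0.70 (-1.43 to 0.00) and in endothelial-like cells -1.15 (-2.22 to -0.13), from 23 and 14 UMIs. With cells thinned to 5000 UMIs the ratio in contractile-like cells was -0.53. The classes are not replicates of each other, since they come from the same 2 libraries. Mitochondrial transcripts made up 1.94% and 2.03% of UMIs in these libraries and *Malat1* stood at 315 and 313 per 10000. The part of RNA quality in the *Notch2* ratios was not tested. In plaques the *Notch2* ratio was -0.05 (-0.20 to 0.09) in contractile-like cells and went either way in the other classes, from -0.19 to 0.38.

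*Heyl* was higher in the Trf2T188A library in all 6 ligation classes, with log2 ratios from 0.22 to 0.42, and the interval lay above 0 in 3 of them. Those were contractile-like cells, remodelling-like cells (0.38, 0.24 to 0.52) and de-differentiated-like cells (0.42, 0.24 to 0.60). *Hes1* was higher in 5 of 6 classes and its interval lay above 0 in the same 3 classes, with the highest of these ratios, 0.36 (0.30 to 0.42), in remodelling-like cells. The median log2 ratio of the early genes there was -0.11, and their part in the *Hes1* ratio was not tested. *Jag1* was lower in all 6 classes, at -0.18 (-0.33 to -0.02) in contractile-like, -0.14 in de-differentiated-like and -0.03 in remodelling-like cells. *Notch3* was higher in de-differentiated-like cells at 0.39 (0.15 to 0.64), and *Hey2* stayed between -0.03 and 0.02 in the 3 large VSMC classes. None of the ratios given here was past the fold, while *Jag1* in interferon-like cells and *Hes1* in myeloid-like cells were, as given with the smaller classes.

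**Figure D4:**
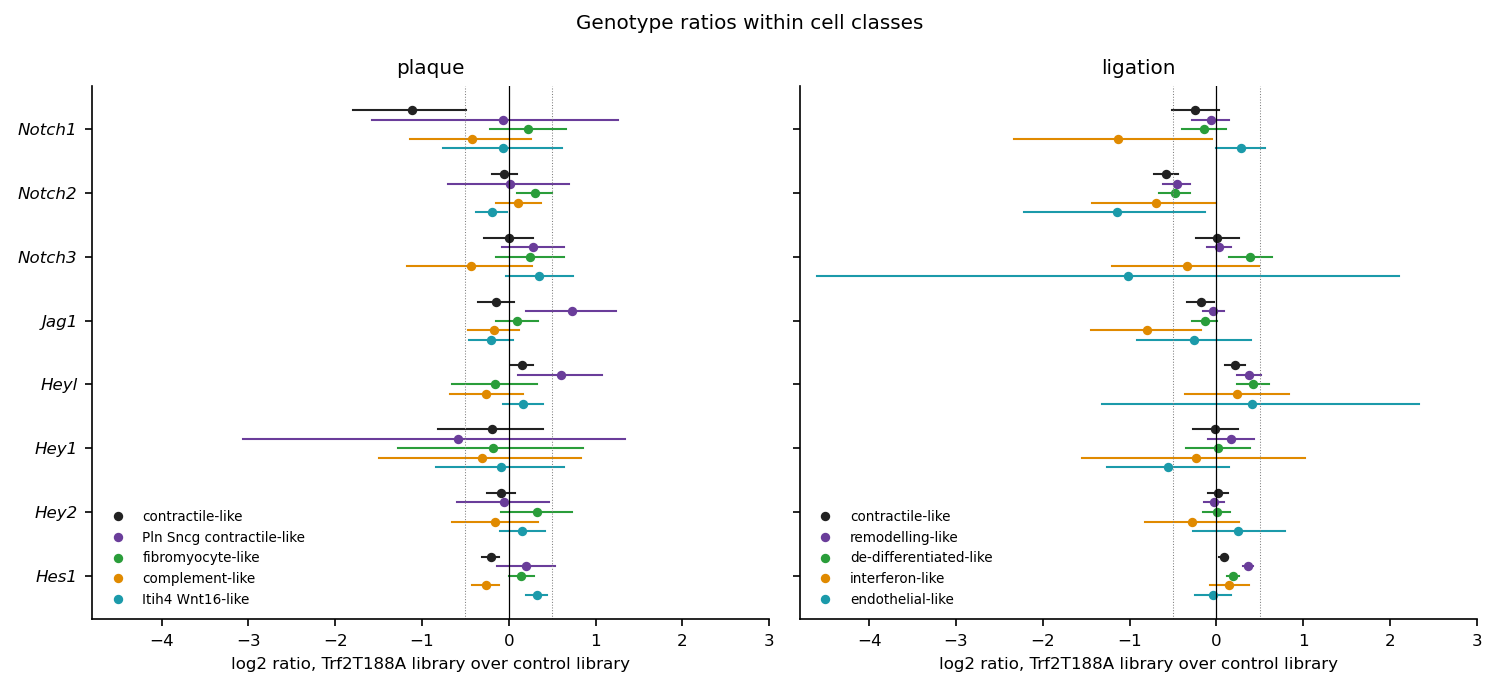
Log2 ratio of the Trf2T188A library over the control library for each gene in 5 classes of plaque (left) and ligation (right) cells. Lines are exact 95% intervals covering counting error only, and dotted lines mark the fold of 0.5 on the log2 scale. In ligation, the *Notch2* ratio lies between -0.46 and -1.15 in the classes shown and the *Heyl* ratio between 0.22 and 0.42.

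*Hes1* went either way in plaques. Its log2 ratio was -0.21 (-0.30 to -0.12) in contractile-like, -0.27 (-0.42 to -0.11) in complement-like and -0.43 (-0.57 to -0.30) in chondrocyte-like cells. It was 0.32 (0.20 to 0.44) in *Itih4* *Wnt16*-like cells, where the early genes summed to 83.2 in ApoE-/- and 118 in Trf2T188A/ApoE-/- cells. In chondrocyte-like cells, where *Hes1* was lower, the early genes were not lower. Their part in these ratios was not tested. *Hey2* ratios in plaques lay between -0.34 and 0.32, and their intervals held 0 in all 8 classes.

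In the smaller classes more genes of any kind were past the fold. In *Pln* *Sncg* contractile-like cells, with 22 Trf2T188A/ApoE-/- cells, *Jag1* (0.72, 0.20 to 1.24) and *Heyl* (0.60, 0.11 to 1.08) were higher and *Hey1* lower on 11 and 3 UMIs, where 21.2% of all genes were higher and 18.9% lower. In chondrocyte-like cells *Jag1* was higher (0.62, 0.11 to 1.13) and *Notch1* lower (-0.98, -2.12 to 0.05), against 11.7% and 14.3%. In *Adamtsl1* *Mdga2*-like cells *Notch1*, *Notch3* and *Hey1* were higher, against 16.1% of all genes higher and 19.2% lower, each with at most 17 UMIs in a library and an interval that held 0. The *Notch3* ratio there turned from 0.87 to -0.79 with cells thinned to 8000 UMIs. In fibromyocyte-like, complement-like and *Itih4* *Wnt16*-like cells 0 members were past the fold, against 5.43% higher and 9.89% lower, 9.01% and 10.9%, and 4.71% and 6.15% of all genes. Among ligation cells, *Notch1*, *Notch2* and *Jag1* were lower in interferon-like cells, against 13.8% higher and 12.2% lower. *Notch2* and *Hey1* were lower in endothelial-like cells, against 13.9% and 17.6%. *Notch1* and *Hes1* were higher and *Notch2* lower in myeloid-like cells, against 18.9% and 35.9%. *Notch3*, *Heyl* and *Hey1* did not pass the filter in chondrocyte-like cells, *Notch3* and *Heyl* did not in endothelial-like cells and *Notch3*, *Hey1* and *Hey2* did not in myeloid-like cells.

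A list of 44 other Notch pathway genes was read in the same way. It held the receptor *Notch4*, ligands, the proteases that cut the receptor, the transcription complex, glycosyltransferases, endocytic regulators and further targets. In plaque contractile-like cells 27 passed the filter and 0 were past the fold between genotypes in either direction (median log2 ratio -0.02). After ligation 26, 25 and 26 passed in contractile-like, remodelling-like and de-differentiated-like cells, with 0 past the fold in each. Between states, 8 of 29 were higher and 2 lower in fibromyocyte-like cells, where 23.0% of all genes were higher and 18.4% lower, led by *Dtx4* at 2.82, *Neurl1a* at 1.60 and the protease gene *Adam17* at 1.14. In *Pln* *Sncg* contractile-like cells 3 of 28 were higher, *Maml3*, *Numb* and *Nrip2*, and 0 lower, against 11.9% and 10.4%. In chondrocyte-like cells 4 of 28 were higher and 9 lower, against 20.2% and 40.4%, with *Neurl1a* at 1.92 and *Hes6* at -1.72. In complement-like cells 7 of 30 were higher and 1 lower, against 23.1% and 15.9%, with *Dll1* at 4.45 and *Dtx4* at 3.84. In *Adamtsl1* *Mdga2*-like cells 11 of 30 were higher and 0 lower, against 23.4% and 9.42%, led by *Dll1* at 4.53. Contractile-like cells held 9 *Dll1* and 15 *Dtx4* UMIs over both libraries, so these ratios rest on few UMIs. After ligation, de-differentiated-like cells had 4 of 25 higher and 1 lower, against 10.6% and 11.1%, with *Adam17* at 0.87 and *Maml3* at 0.83. In remodelling-like cells 1 of 24 was past the fold, *Hes6* at -0.51, against 4.23% higher and 6.78% lower. Endothelial-like cells had 14 of 31 higher and 3 lower, against 31.1% and 24.1%. Genes scarce in contractile-like cells, such as *Dll1*, *Dll4*, *Dtx4* and *Nrip2*, passed the filter only through the class where they were high and could only be counted as higher.

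The endothelial-like cells carried the other endothelial Notch genes. The ligand gene *Dll4* was at 1.45 and 1.39 there and at 0.00812 and 0.00663 in contractile-like cells, and 76.8% of *Dll4* UMIs in the control library lay in 1.25% of its cells. *Notch4* was at 0.312 and 0.166, *Dll1* at 0.175 and 0.249, and the feedback inhibitor gene *Nrarp* at 0.374 and 0.351. *Nrarp* in remodelling-like cells, at 0.0737 and 0.0670, was above that in contractile-like cells, at 0.0284 and 0.0269. *Rbpj*, the DNA-binding partner of all Notch receptors, was lower in endothelial-like cells, at 0.486 and 0.471, than in contractile-like cells, at 0.816 and 0.877. *Jag2* was at most 0.0382 in the 3 large VSMC classes of the ligation libraries.

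In plaques, *Nrip2* was almost confined to *Pln* *Sncg* contractile-like cells. Its level was 0.288 (28 UMIs) and 0.781 (31 UMIs) there, and this class held 87.5% and 75.6% of all *Nrip2* UMIs of the libraries, with 2 and 0 UMIs in the much larger contractile-like class. *Nrarp* was at 0.185 (18 UMIs) and 0.101 (4 UMIs) in the *Pln* *Sncg* class and at 0.00895 and 0.00490 in contractile-like cells. *Dll1* was at 0.0719 and 0.0873 in complement-like cells (21 UMIs each) and at 0.0127 (1 UMI) and 0.133 (15 UMIs) in *Adamtsl1* *Mdga2*-like cells. *Rbpj* was at 0.945 and 0.925 in contractile-like, 1.47 and 1.3 in fibromyocyte-like and 1.38 and 1.5 in chondrocyte-like cells. *Notch4*, *Dll4* and *Jag2* had at most 11, 4 and 49 UMIs in any plaque class and library.

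The genes whose levels ran most like each member were found over 29 groups of class and library from both experiments, among 6343 genes. These groups share libraries and 1 clustering, so the correlations describe these data only. For *Notch3* they were *Enpep*, *Susd2* and *P2rx1* (Pearson's r 0.87, 0.80 and 0.80), for *Heyl* *Cdh6*, *Adcy5* and *Rbpms2* (0.94, 0.93 and 0.93) and for *Hey2* *Bcam*, *Tinagl1* and *Rab6b* (0.85, 0.84 and 0.82). The *Notch3* list held within each experiment unequally, with *P2rx1* at 0.92 in plaque groups and 0.49 in ligation groups, while *Cdh6* ran with *Heyl* at 0.95 and 0.92. For *Notch1* they were *Cish*, *Sox7* and *Gata3* (0.94, 0.94 and 0.93), which rested on ligation groups (0.97 to 0.98) more than on plaque groups (0.47 to 0.59). *Jag1* ran with *Olfml2a* and *C1s1* among others (0.82 and 0.74), *Notch2* with *Pi4ka*, *Rev3l* and *Vps13d* (0.93, 0.92 and 0.89), *Hey1* with *Galnt1*, *Taf11* and *Nectin2* (0.87, 0.86 and 0.86), and *Hes1* with *Bcar1* and *Nuak1* among others (0.79 and 0.76). The *Hey1* list also rested on ligation groups (0.95 to 0.97) more than on plaque groups (0.28 to 0.53). *Rev3l* ran with *Notch2* at 0.92 in plaque and 0.70 in ligation groups, and *Bcar1* with *Hes1* at 0.59 and 0.95.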

How the data were processed

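Per the labels, the authors made libraries with the 10x Genomics Single Cell 3' v3 kit, aligned reads to GRCm38 with Cell Ranger (7.0.0 for plaque, 6.1.2 for ligation) and filtered cells in Seurat. The study states a lower limit of detected genes for Trf2T188A/ApoE-/- than for ApoE-/- plaque cells. The fewest genes in a cell were 1056 and 1531 in these libraries. The part of this unlike filter in the plaque genotype ratios, and in the unnamed cluster of low depth, was not tested. The deposited values are a normalised signal, the UMIs of a gene per cell divided by the cell's total and multiplied by 10000, without a logarithm. UMIs were recovered from them, with 100% of values within 0.01 of whole numbers. Ligation libraries were joined over 29459 genes, with 24628 listed in both and others taken as 0, and plaque libraries over 31765. Clustering used R 4.3.3 with Seurat 5.3.0 without integration. A cluster took the marker list with the highest mean log2 ratio over other cells, at least 0.5 with at least 3 markers, and a cluster of low depth (under 0.4 of its libraries' median) stayed unnamed without an own marker among its 10 leading genes. These limits were set after the data were seen. No cell was removed for the main values. Scrublet called at most 0.323% of a library doublets and so did not work, and leaving out the 5% highest scores was an alternative. Others were the mean over cells, pseudocounts of 1 and 0.1, lower and higher resolution, Notch genes among the variable genes, leaving out cells under 2000 genes or VSMCs with an endothelial UMI, thinning to 8000 (plaque) or 5000 (ligation) UMIs, which left out 214 and 479 cells, and other detection filters. Level intervals are exact Poisson and ratio intervals exact conditional ones. No pseudocount was used. Classes needed 20 cells in each library. The members and lists were chosen with earlier results of these data known. Named pathway genes are *Notch4*, *Dll1*, *Dll4*, *Jag2*, *Rbpj*, *Nrarp*, *Nrip2* and at most the 3 furthest past the fold in a class. Genes like a member were ranked by Pearson's r of log2 levels plus 0.1, among genes at 0.5 or more in a group. Some genes of these rankings are not reported here.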

Additional observations from a re-analysis of the deposited data

Results flagged for a closer look

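The *Jag1* genotype ratio went opposite ways in different classes. Trf2T188A/ApoE-/- cells were higher in *Pln* *Sncg* contractile-like cells of plaques (log2 ratio 0.724) and in chondrocyte-like cells (0.620), and Trf2T188A cells were lower in interferon-like cells after ligation (-0.793), each past the fold. The difference between these ratios was not tested, and each rests on 1 library per genotype, with 80 and 54, 64 and 69, and 71 and 32 *Jag1* UMIs.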

How the results depend on the processing

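Leaving out a replicate was not possible with 1 library per group. No paired analysis was possible because each genotype had 1 library in each experiment and no result comes from a test. Of 756 alternative values of the 81 ratios past the fold, 755 kept their sign and 617 stayed at or past the fold. One turned, *Notch3* between genotypes in *Adamtsl1* *Mdga2*-like cells, from 0.87 to -0.79 when thinned, on 5 and 13 UMIs. The *Heyl* ratio of fibromyocyte-like to contractile-like cells, -2.41, became -0.69 and -1.94 as a mean over cells with a pseudocount of 1 and 0.1, and -1.85 and -2.17 at a lower and higher resolution, where other cells make up the classes. The *Notch3* ratio of these classes, 0.20, became 0.45 as a mean over cells, 0.74 when thinned, -0.62 at the lower resolution and -0.35 without VSMCs holding an endothelial UMI. That last setting removed 1038 of 2213 plaque VSMCs, of which 891 held a *Pecam1* and 7 a *Cdh5* UMI. For de-differentiated-like cells the *Heyl* ratio, -0.52, became -0.18 and the *Notch3* ratio, 0.79, became 0.11 with a pseudocount of 1, and the latter 0.46 with 0.1. These pseudocounts are near or above the levels. The *Heyl* genotype ratio in ligation contractile-like cells, 0.22, became 0.34 at the lower resolution, where de-differentiated-like cells merged into that class and gave no value. Where a cause is not named it was not tested. Over all genes, those past the fold numbered 151 between genotypes in ligation contractile-like cells (5620 without the 10% filter, 69 with 25%), 273 in plaque contractile-like cells (5116 and 57), 1811 in de-differentiated-like against contractile-like cells (9773 and 1047) and 4686 in fibromyocyte-like against contractile-like cells (11330 without the filter). Depth limits *Hey1* in plaques and every member in classes under 100 cells.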

Other observations

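A plaque cluster of 78 ApoE-/- and 94 Trf2T188A/ApoE-/- cells stayed unnamed, since its median depth was 0.334 of that of its libraries. It had the highest plaque levels of *Notch2*, at 2.08 and 1.95, and of *Hes1*, at 4.93 and 4.33, and *Notch3* was at 0.240 and 0.382. The 12 early genes summed to 184 and 211 there, and neither they nor the low depth was tested as a part of these levels. Against contractile-like cells, *Notch1*, *Notch2*, *Notch3* and *Hes1* were higher and 0 of 7 members lower, where 30.2% of all genes were higher and 28.9% lower. Between genotypes *Notch3* was higher and *Notch1* lower past the fold, against 12.8% and 18% of all genes, on 25 and 35 and on 17 and 8 UMIs. With 8 UMIs in 94 Trf2T188A/ApoE-/- cells, *Notch1* passed the filter only through the ApoE-/- cells and could hardly be counted as higher.

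Of the 36 fibroblast-like plaque cells, 35 were from the ApoE-/- library. In those 35 cells the level was 0.370 for *Notch3* (20 UMIs), 0.537 for *Jag1* (29 UMIs), 0.740 for *Notch2* and 0.130 for *Heyl* (7 UMIs), and the summed level of the fibroblast markers was 26.8, against 0.230 in ApoE-/- contractile-like cells. Myeloid-like cells after ligation, with 20 control cells, had *Notch2* at 0.941 and 0.348, from 17 and 21 UMIs, and *Rbpj* at 1.33 and 1.94. No class of T cells was formed, and the summed level of T cell markers was at most 1.51, in Trf2T188A myeloid-like cells. A further 10 plaque cells formed an unnamed cluster of low depth and were not compared.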
